A study of Mus musculus with 6 samples.

Results

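Type I interferon response genes were followed in sorted mouse myeloid progenitors with a Cebpa genotype contrast. The list held 41 genes: the receptor, its signalling factors and genes that interferon switches on. Members were the probe sets annotated to exactly 1 of these symbols, of which there were 42 among 34760, standing for 39 genes of 19937 with a gene row. Isg15 and Ifi44 had no probe set annotated to them alone and were not analysed here. Where a gene had more than 1 probe set, as Ifitm1 and Ifitm2 did, the one with the highest mean over all 6 arrays was used.

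The arrays came from PreGMs, the precursors of granulocyte-macrophage progenitors, of female C57BL/6 mice. One group of 3 mice was labelled Cebpa flox/flox and the other group of 3 was labelled Cebpa flox/flox;Mx1Cre, so both carried floxed Cebpa alleles. All mice had been given pIC (polyinosinic-polycytidylic acid, a synthetic double-stranded RNA) and were killed on day 18, and mice without pIC were not analysed here. In Mx1Cre the Cre recombinase is driven by the promoter of Mx1, itself an interferon response gene, so the treatment that starts recombination is also an inducer of the genes described. The sort took cells with Kit and without lineage markers, Sca1, CD150, CD41, FcγRII or endoglin, and 20 ng of total RNA was amplified for each array. Their ages were not stated in the labels.

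Type I interferons bind a receptor made of Ifnar1 and Ifnar2, whose kinases Jak1 and Tyk2 phosphorylate STAT proteins, among them Stat2. Stat2 and Irf9 are parts of the complex ISGF3, which binds a DNA element with repeated GAAA letters and switches on antiviral genes. Irf7 then raises interferon production further, and Usp18 restrains signalling at the receptor. In bone marrow, pIC acts through interferon on stem and progenitor cells, which is why the Mx1 promoter is used to delete genes there.

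Kit lay between 10.36 and 10.69 on all 6 arrays (log2 scale). Cd34 read 10.11, 10.45 and 10.29 in the arrays labelled flox/flox and 11.42, 11.17 and 11.27 in those labelled Mx1Cre. It did not overlap between labels and was 2.01-fold higher in Mx1Cre (limma adjusted p = 0.000692). Cebpa, the targeted gene, was higher in the arrays labelled Mx1Cre: 6.93, 6.71 and 6.85 in the arrays labelled flox/flox against 8.71, 9.31 and 8.98. That runs against the direction a deletion would give if the probes lay in the deleted part, and probe positions were not used here. Cebpa was 4.50-fold higher (limma adjusted p = 2.65e-05). Of 10 neutrophil progenitor markers and of 10 monocyte and macrophage markers, described below, 7 each were called higher and 0 lower. Over all genes 2.63% were called higher and 2.28% lower. Why Cebpa was higher, and whether the labels were exchanged or the probe set lay outside the deleted part, was not tested. The directions given are those of the labels as deposited, and with exchanged labels every fall would be a rise and every rise a fall. Array medians lay between 6.43 and 6.55, and pairs of arrays correlated, over genes that are not independent replicates, at 0.992 to 0.995 under 1 label and 0.984 to 0.990 between labels.

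Arrays labelled Mx1Cre had lower levels of Rtp4, Usp18, Ifitm1, Samd9l, Ifit1, Parp9, Irf7 and Sp100. In all, 8 of 39 members fell and 0 rose at an adjusted p under 0.05 (limma), where 2.28% of all genes fell, 2.63% rose and 4.91% moved in either direction. Without adjustment 16 members had a p under 0.05 on the lower side and 0 on the higher side, where all genes gave 8.12% and 8.32%. All 3 arrays labelled Mx1Cre lay below all 3 labelled flox/flox for 16 members, against 11.0% of all genes, and above them for 0 members, against 10.5%. The median difference (Mx1Cre minus flox/flox) was -0.23 log2 units over the 39 members and -0.01 over all genes. The other 31 members did not pass, and 26 of these had a difference below 0, as had 10643 of all 19937 genes. The members shared an order of arrays, described below, so their signs are not separate observations. For a single gene an exact two-sided permutation of 3 against 3 arrays cannot give a p below 0.1, so the p-values below come from limma, adjusted over all 19937 genes. In a sorted population, fewer cells that express a gene and less RNA per cell cannot be told apart.

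The count of members lower changed with the arrays and features that entered the fit, as did the count over all genes. It was 5 without flox/flox replicate 1, 2 or 3, and 4 without Mx1Cre replicate 3, where calls over all genes went from 979 to 541, 785, 547 and 538 in that order. Rtp4, Usp18, Ifitm1 and Samd9l passed with each of the 6 arrays left out. With all 34760 probe sets in the fit, which also changes the shared estimate of the spread, only Usp18 and Samd9l passed, beside 0.383% of probe sets lower. With no sharing of the spread between genes, an unequal-variance test called 0 of all 19937 genes and so 0 members, with 9 members lower at an unadjusted p under 0.05.

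**Figure D1:**
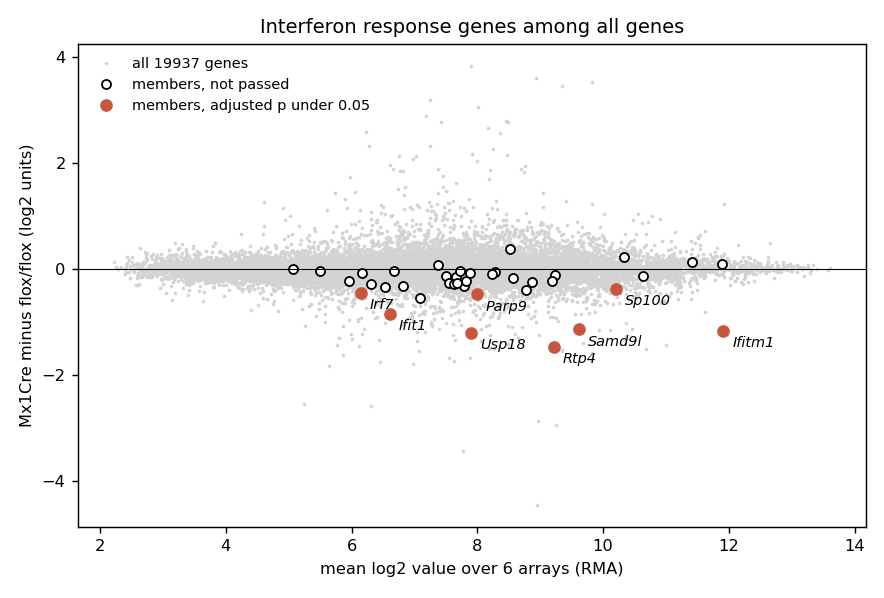
Difference between the arrays labelled Mx1Cre and flox/flox (log2 units) against the mean log2 value over 6 arrays, for all genes (grey), members that did not pass (open circles) and members with an adjusted p under 0.05 (red, named). The 8 members that passed lie below 0, from -0.37 for Sp100 to -1.48 for Rtp4, and the remaining members lie between -0.56 and 0.37.

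Rtp4, which encodes a receptor transporter protein induced by interferon, had the greatest difference of the members. It read 9.84, 10.12 and 9.90 in the arrays labelled flox/flox and 7.98, 9.07 and 8.38 in those labelled Mx1Cre. The groups did not overlap, and the Mx1Cre arrays were spread over more than 1 log2 unit. It was 2.79-fold lower (-1.48 ± 0.22 log2 units, SE, limma adjusted p = 0.00408). Samd9l, which encodes an antiviral protein that also restrains growth of blood progenitors, read 10.34, 10.08 and 10.16 against 8.70, 9.21 and 9.24. Its arrays labelled Mx1Cre were all below those labelled flox/flox, by 1.14 ± 0.14 log2 units between means (SE, 2.21-fold, limma adjusted p = 0.00159). Sp100, a component of nuclear bodies, was tight in both groups, at 10.39, 10.37 and 10.41 against 10.09, 9.98 and 9.98. It fell 1.30-fold (limma adjusted p = 0.0326), which was lost without any 1 of 5 of the arrays, Mx1Cre replicate 1 being the exception, with adjusted p up to 0.133. The annotation also gives Sp100 on a probe set shared with copies of it, which was not used, so signal of those copies in its own probe set cannot be told apart.

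**Figure D2:**
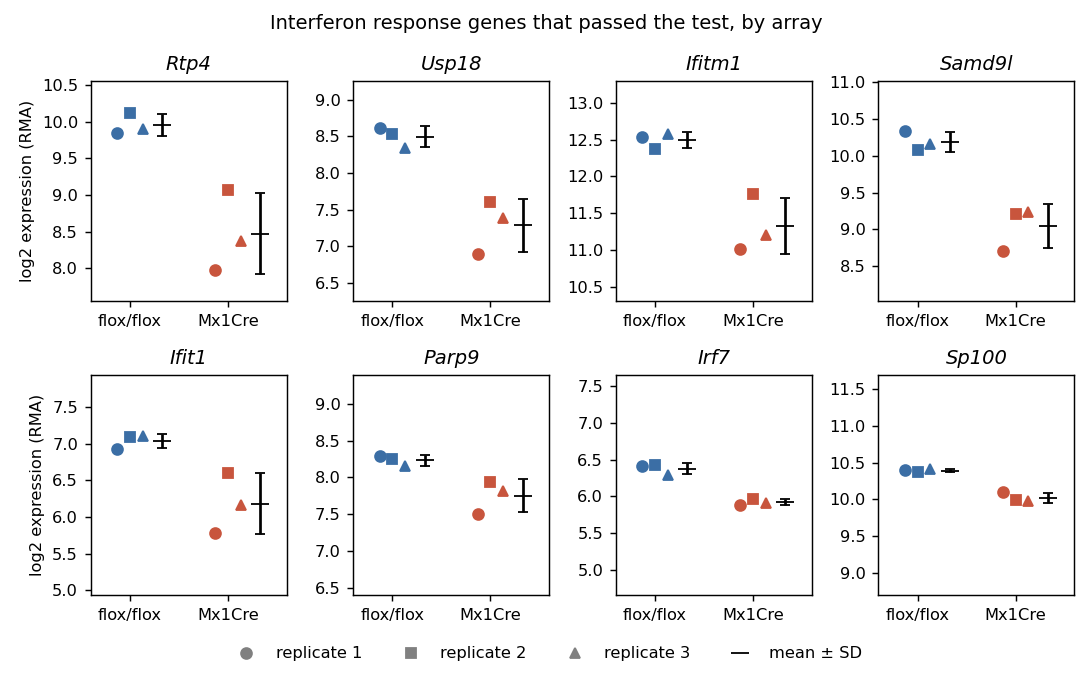
Log2 expression of the 8 members that passed, for each array (symbols mark the replicate), with the mean ± SD of each label (n = 3). Every panel spans the same number of log2 units, and for every gene the 3 Mx1Cre arrays lie below the 3 flox/flox arrays.

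Of 6 receptor and signalling members, Usp18 and Irf7 fell and the subunits of the receptor did not pass. Usp18, a protease that removes ISG15 from proteins and blocks signalling at Ifnar2, read 8.61, 8.53 and 8.34 in the arrays labelled flox/flox and 6.89, 7.60 and 7.38 in those labelled Mx1Cre. It was 2.30-fold lower without overlap (-1.20 ± 0.16 log2 units, SE, limma adjusted p = 0.00229). Irf7 was at 6.42, 6.42 and 6.28 against 5.88, 5.97 and 5.91, tight in both groups. It fell 1.37-fold (limma adjusted p = 0.0148), from 6.38 ± 0.079 to 5.92 ± 0.043 (SD, n = 3 each). Without flox/flox replicate 1, flox/flox replicate 2 or Mx1Cre replicate 3, the adjusted p of Irf7 lay between 0.0501 and 0.0638.

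The ISGF3 members Stat2 and Irf9 were lower on average without passing. Stat2 read 7.87, 7.86 and 8.08 against 7.43, 7.89 and 7.79, so the groups overlapped, with a difference of -0.23 (95% interval -0.51 to 0.05). Irf9 read 7.60, 7.65 and 8.04 against 7.38, 7.70 and 7.35, a difference of -0.28 (95% interval -0.59 to 0.02). Ifnar1 read 8.32, 8.23 and 8.28 against 8.18, 8.19 and 8.19, close together but without overlap. Its difference was -0.09 and the interval, -0.27 to 0.09, did not reach the value of Usp18. Ifnar2 read 10.04, 10.47 and 10.14 against 10.40, 10.49 and 10.45. Its groups overlapped, and the interval of its difference ran from -0.03 to 0.49.

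The 3 IFIT genes, which lie next to each other and whose products bind foreign RNA, differed among themselves in the test. Ifit1 read 6.93, 7.09 and 7.10 in the arrays labelled flox/flox and 5.78, 6.61 and 6.17 in those labelled Mx1Cre. It fell 1.81-fold without overlap (-0.86 ± 0.17 log2 units, SE, limma adjusted p = 0.0214), and did not pass without flox/flox replicate 2, flox/flox replicate 3 or Mx1Cre replicate 3 (adjusted p 0.0678, 0.0817 and 0.0709). Ifit2 read 7.55, 7.85 and 7.78 against 7.40, 7.87 and 7.47. Ifit3 read 5.88, 6.43 and 5.91 against 5.83, 5.95 and 5.75. Both overlapped between labels, with differences of -0.15 (95% interval -0.45 to 0.15) and -0.23 (-0.55 to 0.09). Whether Ifit1 differed more than its neighbours was not tested.

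The IFITM genes, which encode small membrane proteins that hinder virus entry, also gave 1 call among 3. Ifitm1 was bright, at 12.53, 12.37 and 12.58 against 11.02, 11.76 and 11.21. It was 2.24-fold lower without overlap (-1.17 ± 0.17 log2 units, SE, limma adjusted p = 0.00315), and its other probe set read 12.28, 12.09 and 12.26 against 10.25, 11.32 and 10.75. Ifitm2 read 11.27, 11.26 and 11.53 against 11.32, 11.64 and 11.48, and its other 2 probe sets differed by 0.04 and 0.02 log2 units. Ifitm3 read 11.77, 11.84 and 11.92 against 11.85, 12.04 and 11.91. Neither passed, with intervals of -0.12 to 0.38 and -0.12 to 0.29, so neither interval reached the value of Ifitm1, though the difference between these genes was not tested. These genes resemble each other in sequence, and probes may read more than 1 of them.

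Promoters of 2 members of each of these families are shown because they differed in the test while lying close together in the genome. Each is a RefSeq window of GRCm38.p6 from 250 bases before to 50 after the start site, printed 5′ to 3′ on the strand of the gene, with capitals marking a core of the ISGF3 element: GAAA and, after any 2 bases, GAAA again, or on the other strand TTTC, any 2 bases and TTTC. The windows are chr19:34640639-34640938, plus strand, for Ifit1, chr19:34583279-34583578, plus strand, for Ifit3, chr7:140967826-140968125, plus strand, for Ifitm1, and chr7:141010695-141010994, minus strand, for Ifitm3.
Ifit1: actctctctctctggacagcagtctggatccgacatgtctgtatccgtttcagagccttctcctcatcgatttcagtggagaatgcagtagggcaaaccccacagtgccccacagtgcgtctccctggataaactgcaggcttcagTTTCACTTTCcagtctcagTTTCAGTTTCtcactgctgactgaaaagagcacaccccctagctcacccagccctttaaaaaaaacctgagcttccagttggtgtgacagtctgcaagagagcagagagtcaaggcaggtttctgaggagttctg
Ifit3: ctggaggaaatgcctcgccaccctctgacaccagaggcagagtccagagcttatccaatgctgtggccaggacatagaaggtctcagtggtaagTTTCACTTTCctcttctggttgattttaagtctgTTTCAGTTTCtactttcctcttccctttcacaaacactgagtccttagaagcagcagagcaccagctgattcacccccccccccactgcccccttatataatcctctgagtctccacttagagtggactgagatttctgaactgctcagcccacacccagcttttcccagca
Ifitm1: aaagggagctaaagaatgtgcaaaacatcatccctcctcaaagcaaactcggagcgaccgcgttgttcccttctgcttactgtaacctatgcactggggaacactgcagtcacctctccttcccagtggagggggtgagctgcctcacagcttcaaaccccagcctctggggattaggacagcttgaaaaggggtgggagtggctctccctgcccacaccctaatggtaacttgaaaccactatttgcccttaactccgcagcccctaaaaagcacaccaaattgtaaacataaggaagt
Ifitm3: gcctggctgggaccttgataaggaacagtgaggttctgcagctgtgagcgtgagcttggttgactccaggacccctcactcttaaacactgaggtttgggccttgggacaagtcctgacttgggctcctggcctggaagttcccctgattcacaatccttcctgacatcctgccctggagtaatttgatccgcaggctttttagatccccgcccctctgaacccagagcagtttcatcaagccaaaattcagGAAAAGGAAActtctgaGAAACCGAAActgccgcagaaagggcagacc
Ifit1, which fell, and Ifit3, which did not pass, carried the same 2 matches, TTTCACTTTC and TTTCAGTTTC. They began 104 and 85 bases before the start in Ifit1 and 156 and 122 bases before it in Ifit3. Ifitm3 carried GAAAAGGAAA and GAAACCGAAA, beginning 2 and 19 bases past the first transcribed base, whereas the window of Ifitm1 held no match. Of the family members not shown, Ifit2 had 2 windows with 0 matches and Ifitm2 had 1 window with 1 match, and neither gene passed the test. Of the 39 members with a gene row, 30 had a window in the RefSeq table, and 12 of these (40.0%) held at least 1 match, against 3.89% of 15613 genes that had both a gene row and a window. By the outcome of the test the matches were in 1 of 5 members that fell (Ifit1) and in 11 of 25 that did not pass. Rtp4, Usp18 and Parp9, which also fell, had no window and are not in these counts. Overlapping matches, as in Oas1a and Bst2, were counted for a gene once. A match describes letters in a window and is not evidence of binding.

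None of the 5 OAS genes passed, and all 5 had a difference below 0, as had 10643 of all 19937 genes. They encode oligoadenylate synthetases, whose product activates RNase L, or related proteins. Oas2 came closest, at 7.64, 7.01 and 7.44 against 6.81, 7.05 and 6.55, with 1 flox/flox array below the highest Mx1Cre array. Its difference was -0.56 (95% interval -0.93 to -0.18, limma adjusted p = 0.104). Without flox/flox replicate 2 that adjusted p was 0.0311, within 0.0311 to 0.526 over all alternatives. Oas1a read 7.87, 8.04 and 7.95 against 7.18, 8.13 and 7.58, so that Mx1Cre replicate 2 exceeded every flox/flox array and replicate 1 lay below them all. It has close copies, and a probe set shared with Oas1g was not used. Oasl2 read 7.34, 7.85 and 7.85 against 7.23, 7.74 and 7.28. Oas3, at 6.18, 6.26 and 6.17 against 6.13, 6.04 and 6.22, had the smallest difference of the family, -0.07. Oasl1, which holds back translation of Irf7, did not overlap between labels, at 7.59, 7.56 and 7.57 against 7.47, 7.44 and 7.41, but its difference was only -0.14 (limma adjusted p = 0.476).

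Mx1, whose promoter drives the Cre, did not differ detectably between labels. It read 5.13, 5.06 and 5.04 in the arrays labelled flox/flox and 4.95, 5.09 and 5.17 in those labelled Mx1Cre, a difference of -0.0047 with an interval of -0.21 to 0.20. The transgene carries the promoter and not the Mx1 transcript, and the C57BL/6 allele of Mx1 lacks coding exons. Mx2 read 5.68, 5.13 and 5.74 against 5.39, 5.70 and 5.36, so the groups overlapped. The means of both over all arrays, 5.07 and 5.50, lay under the lower quartile of gene levels (5.63), where RMA compresses differences. The sign of both differences turned under some alternatives.

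None of the 6 nucleic acid sensors and RNA-binding effectors passed. Zbp1, a sensor of nucleic acids in the Z form, read 7.04, 6.89 and 7.03 against 6.57, 6.63 and 6.78, without overlap (-0.33, limma adjusted p = 0.0898). Eif2ak2, the kinase PKR that stops translation, read 9.18, 9.29 and 9.45 against 9.10, 9.07 and 9.04, also without overlap (-0.24, limma adjusted p = 0.237). Ifih1, the sensor MDA5 that binds long double-stranded RNA such as pIC, read 8.38, 8.79 and 8.78 against 8.21, 8.72 and 8.50. Its groups overlapped, with an interval of -0.51 to 0.16. Trim25, a ubiquitin ligase of the RIG-I pathway, Adar, which edits adenosine in double-stranded RNA, and Dhx58, the regulator LGP2, overlapped too, with differences of -0.12, -0.08 and -0.03.

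Of the ADP-ribosylation group, Parp9 fell, and its partner Dtx3l and Parp14 did not pass. Parp9 read 8.29, 8.25 and 8.15 against 7.50, 7.94 and 7.81, without overlap (1.40-fold lower, limma adjusted p = 0.0454). It passed under 8 of 17 alternatives, the fewest of the 8 members that fell. The call was lost when any 1 array but Mx1Cre replicate 2 was left out, with adjusted p up to 0.147, and with median centring of the arrays (adjusted p = 0.0564). Dtx3l, a ubiquitin ligase that forms a complex with Parp9, read 8.97, 9.01 and 9.01 against 8.56, 8.86 and 8.83, without overlap (-0.25, limma adjusted p = 0.244). Parp14 differed by -0.06, with an interval of -0.27 to 0.14.

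The remaining members did not pass. Herc6, the ligase that attaches ISG15 in mice, read 9.15, 8.82 and 8.95 against 8.42, 8.70 and 8.59 without overlap (-0.40, limma adjusted p = 0.0775), and passed narrowly with array weights and among genes above the median level (0.0461 and 0.0499, within 0.0461 to 0.426 over all alternatives). Rsad2, which encodes viperin, read 6.60, 6.55 and 6.95 against 6.23, 6.49 and 6.33 without overlap (-0.35, limma adjusted p = 0.166), and its neighbour Cmpk2, a nucleotide kinase, differed by -0.28 with overlap. Xaf1, a pro-apoptotic factor, was at 7.97, 7.69 and 7.80 against 7.35, 7.62 and 7.68, without overlap and with a limma adjusted p of 0.274. Trim30a, Lgals3bp and Ifi35 overlapped between labels, with differences of -0.14, -0.03 and 0.07. Bst2, which encodes the virus tether tetherin, had the highest difference of the members, 0.37, with an interval of -0.06 to 0.80. It read 8.09, 8.53 and 8.39 against 8.31, 9.16 and 8.65, with Mx1Cre replicate 2 highest, and the difference was 0.14 without that array.

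**Figure D3:**
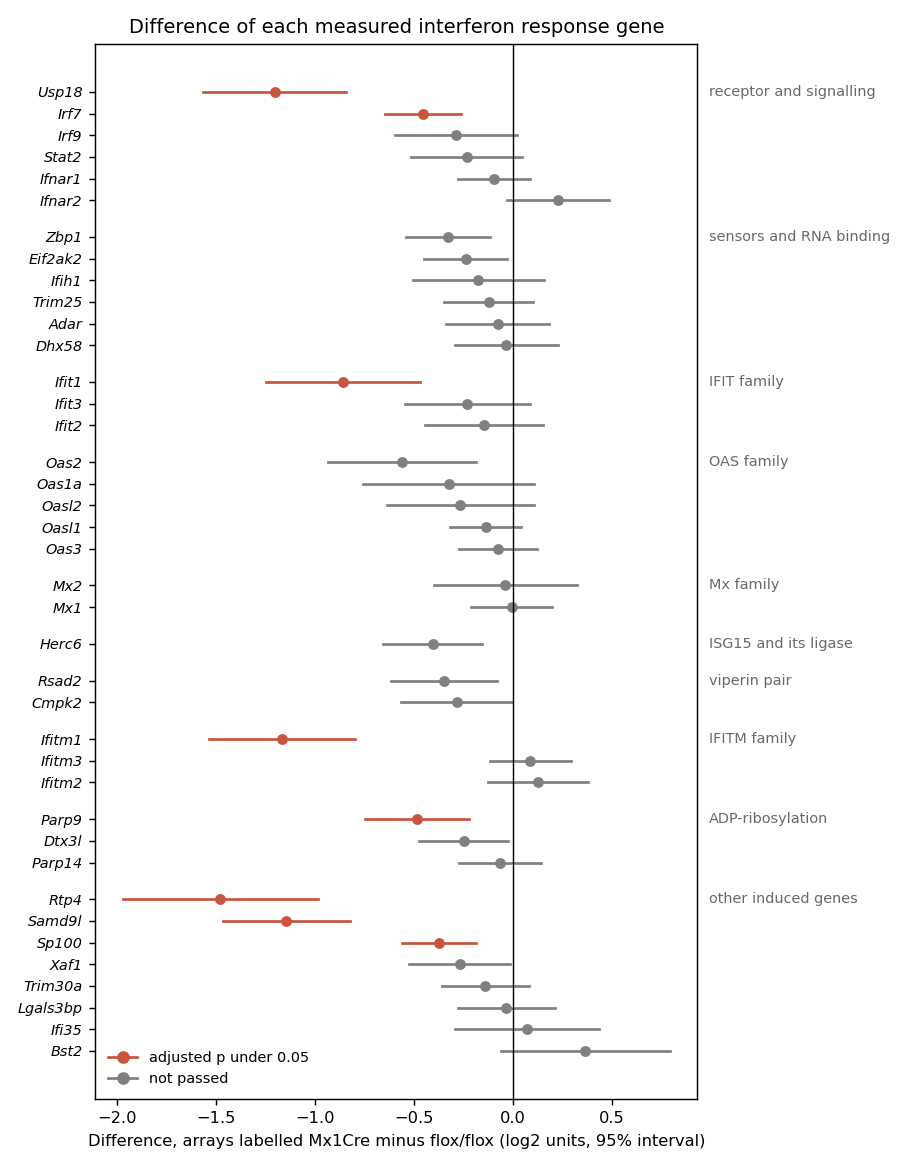
Difference between labels for each measured member (log2 units, point) with its 95% interval (line), grouped by role and coloured red where the adjusted p was under 0.05. Of the 39 differences 34 lie below 0, against 10643 of 19937 over all genes. Within the IFIT, IFITM and ADP-ribosylation groups 1 member each passed.

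The 3 arrays labelled Mx1Cre were ordered alike for most members. Mx1Cre replicate 1 was the lowest of its group for 31 of 39 members and Mx1Cre replicate 2 the highest for 30, where over all genes these shares were 37.3% and 36.4%. Among the 31 members that did not pass the same arrays were lowest for 24 and highest for 24. The mean over the 39 members was 8.23, 8.24 and 8.30 in the arrays labelled flox/flox and 7.79, 8.15 and 7.95 in those labelled Mx1Cre, so the spread was 0.040 (SD, n = 3) in the former and 0.18 in the latter. Over the 31 members that did not pass the means were 7.98, 8.001 and 8.09 against 7.74, 8.05 and 7.87, and these overlapped, with Mx1Cre replicate 2 above flox/flox replicates 1 and 2. The mean of all genes lay between 6.88 and 6.90 on all 6 arrays. Mx1Cre replicate 2, the array of its label nearest to flox/flox in these genes, had the highest Cebpa value, 9.31. It was also the highest of its label in the monocyte, neutrophil progenitor, T and NK cell and sort gate list means, described below. In the other marker lists it was not. Any link between these was not tested. The members' median difference was -0.29 without Mx1Cre replicate 2 and -0.15 without Mx1Cre replicate 1.

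**Figure D4:**
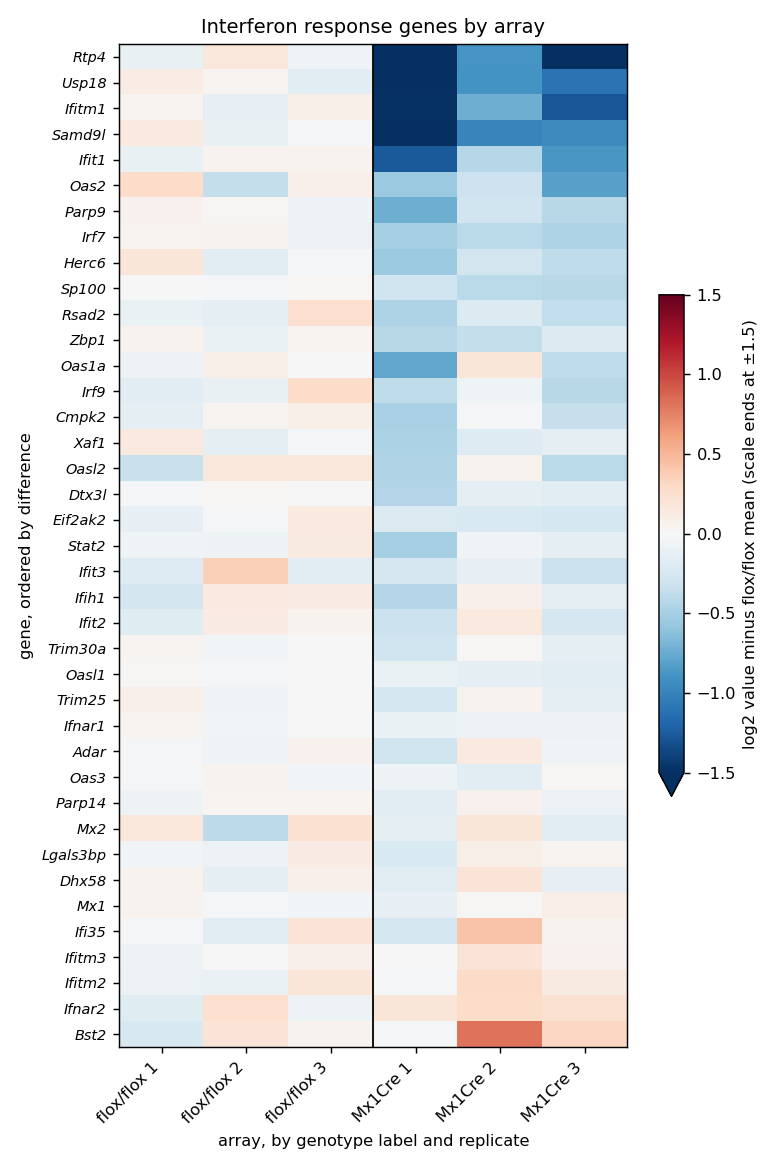
Log2 value of each member on each array minus its mean in the flox/flox arrays, with genes ordered by difference and colours ending at ±1.5. The column of Mx1Cre replicate 1 is the darkest blue and that of Mx1Cre replicate 2 the palest of the 3, with Rtp4 at the top and Bst2 at the bottom.

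Other genes of the pathway, in 4 lists, gave calls in both directions: of 92 measured, 5 fell, 4 rose and 83 did not pass, with a median difference of -0.05. Over all genes 2.28% fell and 2.63% rose, and at an unadjusted p under 0.05 8.12% were lower and 8.32% higher (limma). Of 16 genes of pIC sensing and interferon induction 1 fell and 0 rose (at an unadjusted p under 0.05 1 was lower and 1 higher, limma). It was Ddx58, the RNA sensor RIG-I, at 9.29, 9.31 and 9.32 against 8.18, 8.78 and 8.57 (-0.80 ± 0.14 log2 units, SE, limma adjusted p = 0.00930). The 12 interferon ligand genes held 0 calls (limma, with 1 higher and 0 lower at an unadjusted p under 0.05), and Ifnb1 lay between 5.004 and 5.396 on all arrays, a dim level.

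Of 13 genes for receptor kinases, STATs and restraint, Jak1 fell, from 11.27, 10.99 and 11.13 to 10.62, 10.69 and 10.69 (1.38-fold, limma adjusted p = 0.0236). Tyk2 differed by -0.0062 with an interval of -0.19 to 0.18. Of 51 further interferon-induced genes 3 fell and 4 rose, beside 2.28% and 2.63% of all genes. Ccl5, a chemokine also made by T and NK cells, read 10.16, 10.24 and 9.91 against 7.99, 8.89 and 8.84 (-1.53 ± 0.21 log2 units, SE, limma adjusted p = 0.00266). Slfn5 and the exonuclease gene Isg20 fell 1.91-fold and 1.73-fold. Phf11a, Ifi205, Ifitm6 and Tor3a rose by 0.81, 0.67, 0.65 and 0.47 log2 units, the first 3 from means of 4.76, 3.90 and 4.27 that are dim. Without flox/flox replicate 3 the calls over the 4 lists numbered 5 in place of 9.

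Some lists of cell type markers moved with the label. Beside the counts below, 2.28% of all genes fell and 2.63% rose, and 8.12% were lower and 8.32% higher at an unadjusted p under 0.05 (limma). Monocyte and macrophage markers were higher for 7 of 10 and neutrophil progenitor markers for 7 of 10, with list means of 6.35 to 6.49 and 6.77 to 7.04 in the arrays labelled flox/flox against 7.75 to 7.90 and 8.23 to 8.62. Of 7 erythroid and 6 megakaryocyte markers 1 each fell, and both list means were lower without overlap (8.68 to 9.05 against 8.32 to 8.62, and 7.61 to 7.65 against 7.17 to 7.37). No T and NK cell marker of 14 passed (limma, with 3 lower and 1 higher at an unadjusted p under 0.05). Of the 14 differences 12 were below 0, against 10643 of 19937 over all genes. Cd3g, Gzma and Nkg7 differed by -0.45, -0.43 and -0.42 log2 units, and Cd3e by -0.0034. Eomes and Cd2, the 2 with a difference above 0, differed by 0.34 and 0.18. The T and NK cell list mean was 6.11 in Mx1Cre replicate 1, the array lowest in interferon response genes, and 6.37 to 6.44 in the other 5. That array also had the lowest erythroid, megakaryocyte, B lineage and sort gate list means (8.32, 7.17, 6.10 and 7.98). It was not the lowest for the plasmacytoid dendritic cell, stem cell, monocyte and neutrophil progenitor lists. Of 8 plasmacytoid dendritic cell markers none passed (limma, with 1 lower and 1 higher at an unadjusted p under 0.05), and their list means overlapped (6.66 to 6.85 against 6.66 to 6.84). Of 8 B lineage markers none passed (limma, with 3 lower and 0 higher at an unadjusted p under 0.05), with list means of 6.24 to 6.35 against 6.10 to 6.23. Of 8 stem cell markers Hlf rose, and of 7 sort gate antigens Cd34 and Fcgr2b rose and Fcgr3 fell. On log2 arrays without detection calls no marker can be read as 0. Whether these markers came from PreGMs or from other cells, and what part either had in the interferon result, was not tested.

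**Figure D5:**
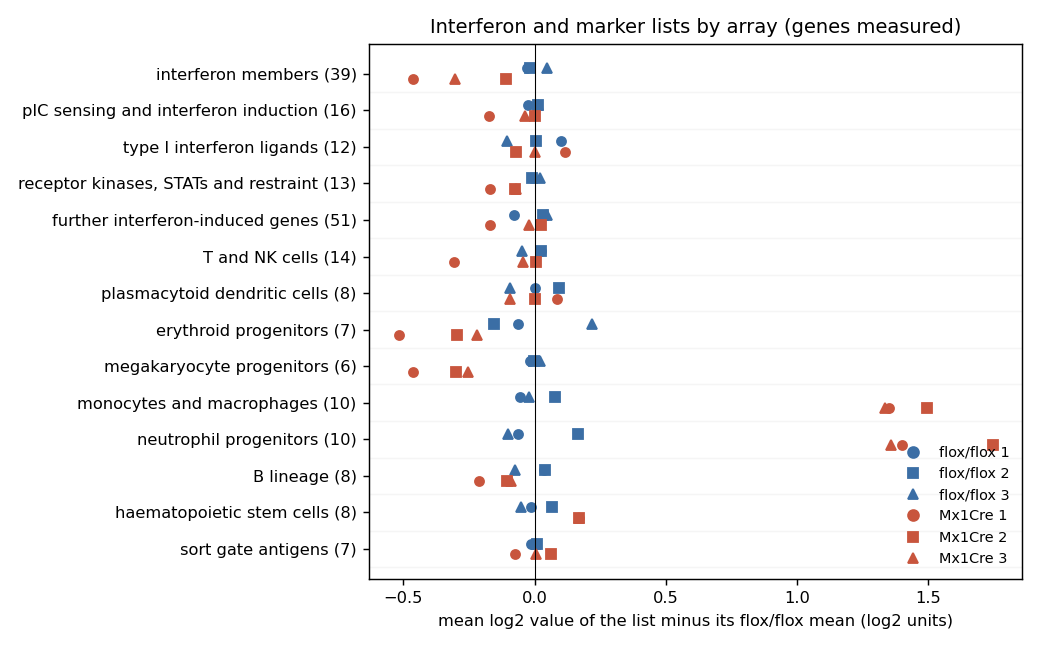
Mean log2 value of each list on each array minus the mean of the 3 flox/flox arrays (log2 units), with the number of genes measured in brackets, flox/flox in blue and Mx1Cre in red, symbols marking the replicate. The mean over all 39 interferon members lies lower in all 3 Mx1Cre arrays, and monocyte and neutrophil markers lie more than 1 log2 unit higher.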

How the data were processed

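Expression was measured on Affymetrix arrays, 1 per sample, in 3 samples of each genotype label, which the design text gives as separate mice. The deposited values are log2 expression per probe set, made by the authors with RMA and affy per the submitters' processing notes (versions not given in the sources used here). RMA corrects background, quantile normalizes and summarises probes, and understates folds of dim genes. Having 3 arrays per label limits the precision.

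The platform annotation gave 1 symbol for 21640 of 34760 probe sets, several for 1321 and none here for 11799. Of the former, 21553 matched the mouse RefSeq table (GRCm38.p6) by Entrez number. The brightest probe set stood for a gene, giving 19937 genes. Labels were compared with limma 3.58.1 in R 4.3.3 (lmFit, eBayes, no block) with Benjamini-Hochberg adjustment over all genes and a threshold of 0.05. Differences are Mx1Cre minus flox/flox, with the moderated SE and 95% interval. The fit was tested on simulated data with independent noise for each gene. Such data lack the shared order of arrays seen in the members, so that test does not bear on their calls. Alternatives were a replicate block, leaving out each array, 2 scalings, 2 filters on dim genes, 2 other choices of probe set, all probe sets, 3 variance models and 2 thresholds.

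The members and lists were chosen with earlier results of these data known. Every member is named. Per-array values are given for members that passed, for receptor, ISGF3, IRF7, OAS, IFIT, Mx and IFITM genes and, by a choice made after their values were seen, for some others near the threshold. Of other pathway genes, Jak1, Tyk2 and up to 4 calls per list and direction are named. Ifnb1, Cd3e, Cd3g, Gzma, Nkg7, Eomes and Cd2 were added after values were seen.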

Additional observations from a re-analysis of the deposited data

How the results depend on the processing

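Over the alternatives, 601 of 653 values of single members kept their direction and side of the threshold, 32 lost the call, 4 gained it and 16 turned sign, none of them in a member that passed. The cause of these changes was not tested, also where fewer arrays entered the fit. With all probe sets tested, 2 members were lower, 2 other pathway genes passed and 244 genes passed in all. With no sharing of the spread between genes these counts were 0, 0 and 0 (9, 13 and 2124 at an unadjusted p under 0.05, against 16, 26 and 3276 with limma), and the adjusted p of Cebpa was 0.270 at an unchanged difference of 2.17. At an adjusted p under 0.01 the counts were 4, 5 and 389, and at 0.1 other pathway genes numbered 14 and all genes 1466. Array weights gave 16 other pathway genes and 1389 genes in all. With 1 array left out, members lower ranged from 4 to 7, other pathway genes from 5 to 12, all genes from 538 to 785 and the members' median difference from -0.29 to -0.15. No alternative called a member higher.

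Signs turned for Mx1 with cyclic loess (0.018) and array weights (0.052). With 1 array left out the differences ranged from -0.055 to 0.055 for Mx1, -0.23 to 0.075 for Mx2, -0.14 to 0.035 for Dhx58, -0.11 to 0.24 for Ifi35, -0.093 to 0.066 for Lgals3bp and -0.19 to 0.038 for Adar.

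Replicate numbers are shared by the labels, but deviations of same-numbered arrays correlated at 0.188, 0.0515 and 0.174 across genes, and not every array correlated best with its own number, so the numbers were not taken as pairs. With the replicate block 7 members were lower, 11 other pathway genes passed and 1089 genes passed in all, and Parp9 had an adjusted p of 0.0511.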
